A study of Canis lupus familiaris with 6 samples.

Results

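The collagen hydroxylases and lysyl oxidases studied here are 10 genes taken by symbol, a set drawn up with earlier results of these data known: P4HA1, P4HA2, P4HA3, P4HB, PLOD1, PLOD2, PLOD3, LOX, LOXL1 and LOXL2. All 10 were found among the 29822 gene rows of each library, and all 10 were among the 15397 genes that passed the filter on low counts. The RNA sequenced was from CMM10, a cell line of canine malignant melanoma, with 3 libraries of cells kept under hypoxia and 3 of cells kept under normoxia. The labels name no other treatment, and they state neither an oxygen level nor a duration. Everything here comes from 1 cell line, and the labels do not say that the libraries of a condition came from separate cultures, so p-values measure the spread between these libraries, which may be technical.

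A collagen chain is modified in the endoplasmic reticulum before it folds into a triple helix. Collagen prolyl 4-hydroxylase, a tetramer of alpha subunits (P4HA1, P4HA2 or P4HA3) and the beta subunit P4HB, hydroxylates prolines and so stabilises the helix, and the lysyl hydroxylases PLOD1, PLOD2 and PLOD3 hydroxylate lysines. Both enzyme groups need molecular oxygen, iron, 2-oxoglutarate and ascorbate. Outside the cell, the copper-dependent lysyl oxidases (LOX and the LOX-like enzymes) oxidise lysines and hydroxylysines, from which the crosslinks between collagen molecules form. Several of these genes are known targets of the hypoxia-inducible factors, and crosslinked collagen is known for its part in tumour invasion.

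Library depth was 23196647 to 28804337 gene reads, with 93.8% to 94.6% of them uniquely mapped. The hypoxia-responsive genes CA9, SLC2A1 and VEGFA were 13.7-fold, 5.63-fold and 3.49-fold higher in the libraries labelled hypoxia. Of 9 melanocyte markers, 6 were over 1 TPM (a transcript level per exon length, scaled to the same sum in each library) in every library, among them MITF at 21.9 to 25.4 TPM and SOX10 at 49.5 to 79.6 TPM, but TYR was at 0 TPM in all 6 libraries and TYRP1 reached at most 0.064 TPM. The summed melanocyte markers lay at 169 to 183 TPM under hypoxia and 155 to 171 TPM under normoxia. Means were higher under hypoxia for SOX10 (72.2 against 54.5 TPM) and SLC45A2 (31.7 against 24.0). They were lower for DCT (44.8 against 52.9) and slightly lower for MITF (23.5 against 24.5). Levels were low for PMEL (1.75 against 1.76), GPR143 (1.82 against 1.95) and MLANA (0.65 against 1.47). Of 8 fibroblast markers, 5 were over 1 TPM in every library, and their sum, mostly COL1A2, lay at 3075 to 3165 TPM under hypoxia and 2368 to 2505 TPM under normoxia. Mean levels under hypoxia and normoxia were 235 and 190.5 TPM for THY1, 2.40 and 0.54 for PDGFRA, 2.99 and 2.21 for DCN, 3.91 and 4.35 for COL3A1, 0.67 and 0.49 for PDGFRB and 0.16 and 0.20 for LUM. COL1A1, COL1A2 and COL3A1 are also in the list of collagen substrates used below. Of 3 markers found for keratinocytes or other epithelia, KRT14 and EPCAM were over 1 TPM in every library. The sum of the 3 lay at 1006 to 1152 TPM under hypoxia and 350 to 360 TPM under normoxia. KRT14 made this difference, with means of 949 against 193 TPM, while EPCAM (145 against 163 TPM) and TP63 (0.32 against 0.85 TPM) had lower means under hypoxia. Endothelial markers summed to at most 4.63 TPM and leukocyte markers to at most 1.04 TPM. The fibroblast sum and KRT14 were thus higher in the hypoxia libraries, as were most of the 10 enzyme genes, and the part of such markers in the results was not tested. In a bulk sample, a change in RNA per cell and a change in the cells that hold it cannot be told apart.

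Of the 10 genes, 8 rose under hypoxia, 1 (LOXL1) fell and 1 (P4HA3) did not pass the test. PLOD2 (5.26-fold), P4HA1 (4.43-fold), LOXL2 (3.39-fold) and LOX (2.15-fold) rose by over 2-fold, P4HA2 (1.84-fold) and PLOD1 (1.75-fold) by less, and P4HB and PLOD3 by 1.28-fold and 1.27-fold. The test was edgeR's quasi-likelihood test on gene reads, called at a Benjamini-Hochberg adjusted p under 0.05 over all genes tested. Among all 15397 genes, 24.5% were called higher and 24.4% lower. Scaling by library size without TMM factors moved the part of all calls that were higher from 50.1% to 38.8%, and the counts for the 10 genes were again 8 and 1. The median log2 fold change of the 10 was 0.84, and that of all genes tested 0.00096. TMM scaling holds the latter near 0, and it was -0.065 with library size alone. A rise over 2-fold was called in 740 genes, or 4.81% of those tested. Against a null of a 1.5-fold change, 6 of the 10 were called higher and none lower, where 4.91% of all genes were called higher and 0.617% lower. The libraries of the 2 conditions did not overlap for 9 of the 10 genes (8 higher and 1 lower under hypoxia). Among all genes tested, 27.8% were higher and 27.5% lower without overlap.

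**Figure D1:**
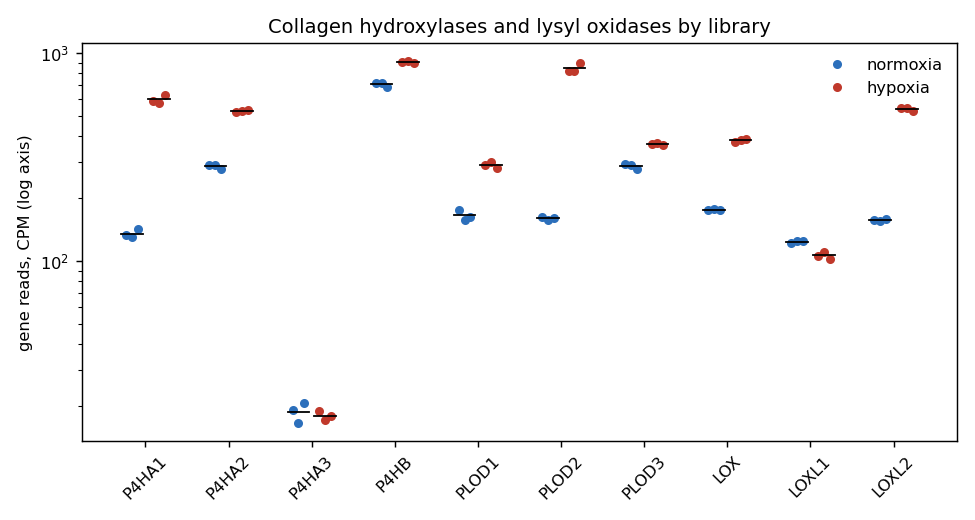
Gene reads in CPM (scaled to library size with TMM factors, log axis) of the 10 genes, 1 point per library with the group mean as a bar, normoxia in blue and hypoxia in red. PLOD2, P4HA1 and LOXL2 show the widest gaps, P4HA3 overlaps at 16.6 to 20.9 CPM, and LOXL1 is the gene with all hypoxia points below the normoxia points.

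P4HA1 is the major alpha subunit of collagen prolyl 4-hydroxylase in most tissues and carries its catalytic site. The gene (ENSCAFG00000014573) lies on chromosome 4 of CanFam3.1, at 23601636 to 23677762 on the minus strand. Its gene reads, in CPM, stood at 589.9, 578 and 631 under hypoxia and at 134, 130.1 and 142 under normoxia, here and below in the order of replicates 1, 2 and 3. Every hypoxia library was thus far above every normoxia library, with means of 599.5 ± 27.6 against 135 ± 6.15 CPM (SD, n = 3 per group). The log2 fold change was 2.15 ± 0.040 (SE; adjusted p = 3.93e-29, edgeR's quasi-likelihood test).

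P4HA2, another catalytic alpha subunit, lies on chromosome 11 at 20514978 to 20549541. It stood at 522, 525 and 531 CPM under hypoxia against 289, 291 and 277 CPM under normoxia. The groups did not overlap, and the log2 fold change was 0.88 ± 0.034 (adjusted p = 1.48e-20, edgeR's quasi-likelihood test). P4HA3, the remaining alpha subunit, on chromosome 21 at 23991469 to 24032642, was low throughout, with 475 to 535 gene reads per library under hypoxia and 458 to 507 under normoxia. Its levels were 19.0, 17.3 and 17.9 CPM under hypoxia and 19.1, 16.6 and 20.9 CPM under normoxia, so that the groups overlapped. Its log2 fold change was -0.06 ± 0.087 (not called, adjusted p = 0.599, edgeR's quasi-likelihood test), with a 95% interval of the fold from 0.85 to 1.08. From exon reads the estimate had the other sign (0.06 ± 0.11), and it did not pass there either.

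P4HB, the beta subunit, is protein disulfide isomerase, which also folds other secreted proteins and retains the tetramer in the endoplasmic reticulum. It lies on chromosome 9 at 427830 to 436064. It stood at 910.4, 912 and 892 CPM under hypoxia and 718, 721 and 687 CPM under normoxia, without overlap. The log2 fold change was 0.35 ± 0.032 (adjusted p = 6.89e-11, edgeR's quasi-likelihood test). The P4HB model lies inside those of PCYT2, on the same strand, and GCGR, on the other, and the libraries do not mark strand, so reads of these genes cannot be fully told apart. From exon-exon reads, which span a splice junction, P4HB changed by 0.38 ± 0.030, PCYT2 by -0.09 ± 0.050, and GCGR had 8 such reads under hypoxia and 0 under normoxia.

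The balance of the alpha subunits differed between the conditions. Levels of different genes are compared here per exon length, in TPM. P4HA1 made up 63.8%, 63.0% and 64.5% of the summed TPM of P4HA1, P4HA2 and P4HA3 in the hypoxia libraries and 40.1%, 39.7% and 41.9% in the normoxia libraries. P4HA2 thus held the larger share in every normoxia library (55.2% ± 1.504, SD, n = 3) and the smaller in every hypoxia library (34.7% ± 0.72). Each of these shares differed without overlap, with a two-sided exact permutation p = 0.1, the smallest that 3 libraries against 3 can give. P4HA3 went from 4.29% ± 0.35 to 1.55% ± 0.17 of the sum while its own level did not pass a test. The sum itself was 856 ± 25.3 TPM under hypoxia and 305 ± 7.68 TPM under normoxia (exact permutation p = 0.1). P4HB rose less than P4HA1 and P4HA2. Its level over the sum of the alpha subunits was 1.34, 1.36 and 1.27 under hypoxia and 2.99, 3.02 and 2.85 under normoxia. This ratio was lower in every hypoxia library (exact permutation p = 0.1 on the log2 ratio).

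PLOD2, lysyl hydroxylase 2, is the enzyme known to hydroxylate lysines in the telopeptides of collagen, which sets the type of crosslink that forms. It lies on chromosome 23 at 41290567 to 41382807 (ENSCAFG00000008101, minus strand). It stood at 822, 824 and 895 CPM under hypoxia and 164, 158 and 162 CPM under normoxia. This was the largest change among the 10 genes, a log2 fold change of 2.40 ± 0.038 (adjusted p = 5.78e-31, edgeR's quasi-likelihood test). By log2 fold change PLOD2 ranked 108th from the top and P4HA1 146th among the 15397 genes tested. A small nuclear RNA model lies inside PLOD2, with 9 reads in the 3 hypoxia libraries together and 2 in the normoxia libraries.

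PLOD1, lysyl hydroxylase 1, which acts on the helical part of collagen, lies on chromosome 2 at 84320529 to 84343562. It stood at 290.3, 298 and 280.4 CPM under hypoxia and 177, 158 and 163 CPM under normoxia, all hypoxia libraries being higher. Its log2 fold change was 0.80 ± 0.039 (adjusted p = 1.63e-17, edgeR's quasi-likelihood test). PLOD3, which also carries the glycosyltransferase activity that adds sugars to hydroxylysine, lies on chromosome 6 at 8664358 to 8671620. It stood at 366, 369 and 359.9 CPM under hypoxia and 294, 290.4 and 276 CPM under normoxia. The rise was small but larger than the spread within each condition, at 0.35 ± 0.034 (adjusted p = 3.91e-10, edgeR's quasi-likelihood test).

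PLOD2 went from the least to the most abundant of the 3 lysyl hydroxylases. Under normoxia PLOD3 held 48.2% ± 0.81 of their summed TPM, PLOD1 29.9% ± 0.94 and PLOD2 22.0% ± 0.23 (SD, n = 3). Under hypoxia PLOD2 held 49.7%, 49.3% and 52.6% in replicates 1, 2 and 3, PLOD3 27.0% ± 0.73 and PLOD1 22.4% ± 1.08. No share overlapped between the conditions (exact permutation p = 0.1 for each). The family sum was 1053 ± 27.6 TPM under hypoxia and 468 ± 14.1 TPM under normoxia, a ratio of 2.25 (exact permutation p = 0.1). Thus PLOD1 and PLOD3 lost share although both rose.

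**Figure D2:**
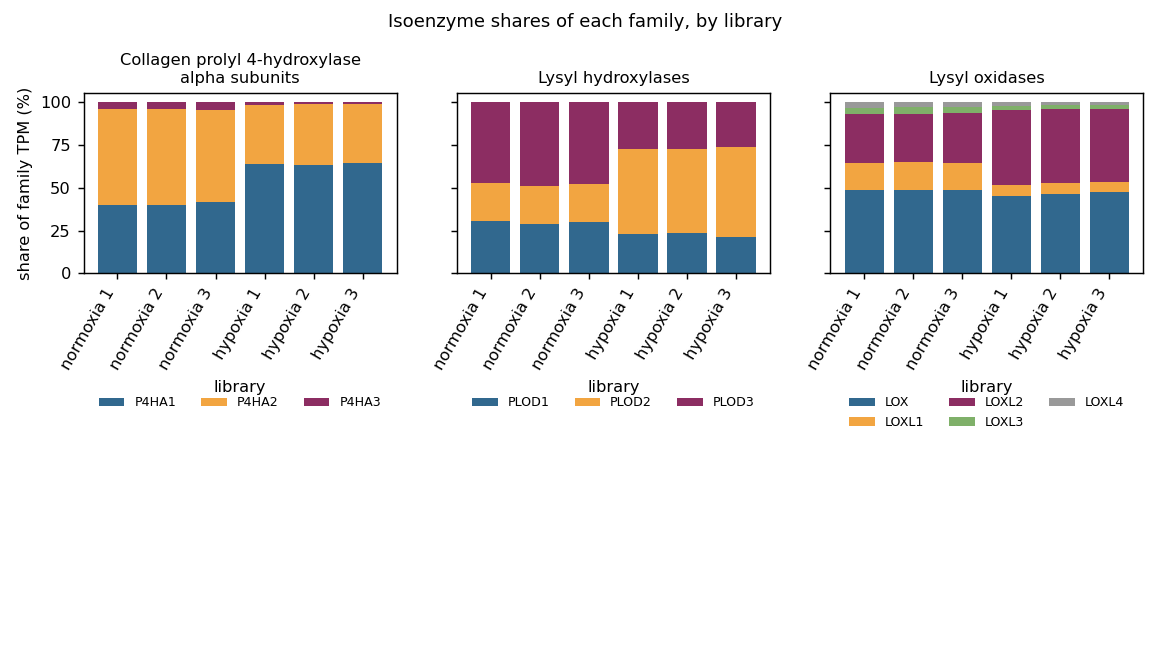
Share of each gene in the summed TPM of its family, in percent, with 1 stacked bar per library (3 normoxia, then 3 hypoxia) for the P4HA subunits, the lysyl hydroxylases and the lysyl oxidases. P4HA1 goes from 40.6% to 63.8%, PLOD2 from 22.0% to 50.5% and LOXL2 from 28.4% to 43.0% in the mean of 3 libraries.

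LOX, the founding lysyl oxidase, acts on collagen and elastin and lies on chromosome 11 at 12027250 to 12039819. It stood at 374, 384 and 385 CPM under hypoxia and 175, 179 and 177 CPM under normoxia, with narrow spread in both groups. The log2 fold change was 1.11 ± 0.034 (adjusted p = 4.87e-23, edgeR's quasi-likelihood test). LOXL2, which is known to crosslink type IV collagen of basement membranes, lies on chromosome 25 at 34126335 to 34185969. It stood at 544, 543 and 525 CPM under hypoxia and 158, 157 and 160.0 CPM under normoxia, a change of 1.76 ± 0.035 (adjusted p = 1.28e-28, edgeR's quasi-likelihood test). The model of R3HCC1, on the other strand, overlaps that of LOXL2. From exon-exon reads alone LOXL2 changed by 1.79 ± 0.037, so the rise was as large in reads that span its own splice junctions.

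LOXL1, which is known for its part in elastic fibre upkeep, was the member that fell. It lies on chromosome 30 at 37183128 to 37204058. It stood at 106, 111 and 103 CPM under hypoxia and 122, 124 and 124 CPM under normoxia, with every hypoxia library below every normoxia library. The fall was 0.86-fold with a 95% interval of 0.81 to 0.91, a log2 fold change of -0.21 ± 0.041 (adjusted p = 5.21e-05, edgeR's quasi-likelihood test). The remaining lysyl oxidases of the family, LOXL3 and LOXL4, were both called higher, where 24.5% of all genes were. LOXL3 rose by 0.52 ± 0.050 (80.0 ± 4.10 against 55.6 ± 0.97 CPM, adjusted p = 1.52e-10 by edgeR). LOXL4 rose by 0.38 ± 0.080 (23.3 ± 2.23 against 17.9 ± 0.24 CPM, adjusted p = 0.000161 by edgeR). The LOXL3 change was 0.64 ± 0.063 from exon, 0.70 ± 0.081 from exon-exon and 0.42 ± 0.069 from intron reads. From intron reads LOXL4 did not pass (adjusted p = 0.655 by edgeR).

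Per exon length, LOX and LOXL2 together dominated the lysyl oxidases in both conditions. LOXL2 held 43.7%, 43.0% and 42.4% of the summed TPM of the 5 genes under hypoxia and 28.5%, 27.9% and 28.7% under normoxia. LOXL1 held 6.23% ± 0.25 and 16.2% ± 0.20. LOX held 46.3% ± 0.96 and 48.6% ± 0.21, lower in the hypoxia libraries, but with exon-exon reads per junction as the level its share was 2.08 percentage points higher there. The differences in TPM share of LOX, LOXL1 and LOXL2 each had an exact permutation p = 0.1, and the exon-exon value was not tested. The summed level was 1101 ± 15.6 TPM under hypoxia against 505 ± 13.5 TPM under normoxia, a ratio of 2.18 (exact permutation p = 0.1).

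Ordered by TPM, P4HB was the highest of the 10 genes in both conditions, at 1131 ± 12.4 under hypoxia and 901 ± 8.09 under normoxia, and P4HA3 the lowest, at 13.2 ± 1.27 and 13.1 ± 1.39. Under normoxia LOX (245 ± 5.75), PLOD3 (225 ± 4.65) and P4HA2 (168 ± 0.59) followed P4HB. LOXL2 (143 ± 5.54) and PLOD1 (139.9 ± 8.36) overlapped each other, and P4HA1 (124 ± 6.72), PLOD2 (103 ± 2.13) and LOXL1 (81.7 ± 2.58) came after them. Under hypoxia P4HA1 (546 ± 21.5), PLOD2 (532 ± 31.3) and LOX (509.9 ± 14.4) came next after P4HB. Within that trio the ranges of neighbours overlapped between libraries, but in each hypoxia library P4HA1 was above PLOD2 and PLOD2 above LOX. Some gaps were small, with PLOD2 at 519 and LOX at 517 TPM in hypoxia replicate 2, and the order was not tested. The trio was followed by LOXL2 (474 ± 7.76), P4HA2 (297 ± 6.26), PLOD3 (284 ± 3.34), PLOD1 (236 ± 8.49) and LOXL1 (68.6 ± 3.68). P4HA1 and PLOD2 thus stood at ranks 7 and 8 under normoxia and within the top 4 under hypoxia.

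Gene reads hold both exon and intron reads, so each kind was also tested on its own across all genes, with its own scaling. Exon-exon reads, which come from spliced RNA, gave 8 members higher and 1 lower, where 22.6% of all genes were higher and 21.8% lower. For every member but P4HA3, the log2 change lay at most 0.052 from that of gene reads. PLOD2 changed alike in exon (2.41 ± 0.038), exon-exon (2.41 ± 0.038) and intron reads (2.40 ± 0.055). For P4HA1 the intron reads changed by 2.05 ± 0.066 and the exon reads by 2.18 ± 0.038.

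From intron reads 6 members were higher and 1 lower, against 18.7% and 15.7% of all genes. PLOD3, with 1080 intron reads under hypoxia and 1020 under normoxia in all, changed by 0.01 ± 0.10 and did not pass (adjusted p = 0.969, edgeR's quasi-likelihood test). P4HB, at 0.20 ± 0.098, did not pass either (adjusted p = 0.0978 by edgeR). No intron read of P4HB was uniquely mapped, so this value cannot be assigned to P4HB itself. P4HA2 changed by 1.25 ± 0.066 in intron reads and by 0.85 ± 0.033 in exon reads. Introns accordingly made up 10.9%, 10.5% and 10.6% of P4HA2 reads under hypoxia and 8.41%, 8.51% and 8.18% under normoxia. For LOX the intron share was also higher in every hypoxia library (15.7% ± 0.22 against 14.3% ± 0.13), and for PLOD3 lower in every one (3.58% ± 0.34 against 4.61% ± 0.68). These 3 differences reached the smallest exact permutation p = 0.1, which was 0.333 after Benjamini-Hochberg adjustment over the 10 genes. The intron shares of the other 7 overlapped between the conditions. Among 15090 tested genes with reads for this comparison, the intron share was higher without overlap in 7.77% and lower in 10.5%.

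**Figure D3:**
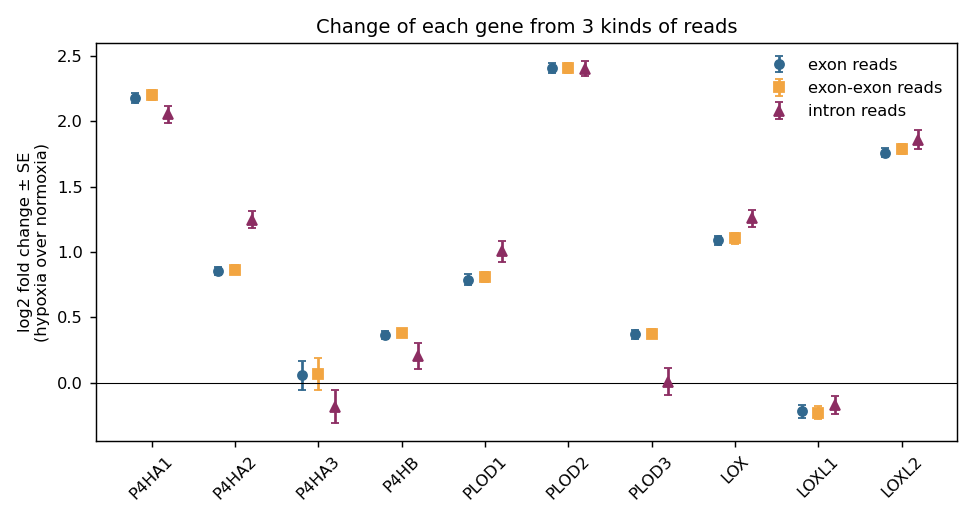
Log2 fold change of hypoxia over normoxia (points) with its SE (bars) for the 10 genes, from exon reads, exon-exon reads and intron reads fitted separately. The 3 kinds lie together for PLOD2, while intron reads lie above exon reads for P4HA2 and near 0 for PLOD3. The intron reads of P4HB were not uniquely mapped.

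The gene whose pattern over the 6 libraries lay nearest to that of PLOD2 was ERO1A, the oxidase that recharges protein disulfide isomerase, with 382 ± 11.4 against 76.7 ± 3.34 CPM. Likeness was the Euclidean distance of log2 CPM, each gene centred on its normoxia mean, among 9150 genes with a symbol and at least 10 CPM, and was 0.16 for ERO1A. The hexokinase HK2 (0.19), the glucose transporter SLC2A1 (0.19), the transcription factor MAF (0.20) and the lactate transporter SLC16A3 (0.20) came next. With 2 conditions this measure mostly reflects a similar fold change, which was 2.32 to 2.49 on the log2 scale in these 5.

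Other genes of collagen making were taken from lists chosen by known function. Of 10 tested genes of collagen folding and modification, 3 rose and 3 fell, near the 24.5% and 24.4% of all genes tested, with a median log2 fold change of -0.04. The prolyl 3-hydroxylase P3H2 rose from 119 ± 4.41 to 339 ± 5.49 CPM (1.505 ± 0.037, adjusted p = 7.21e-26, edgeR's quasi-likelihood test). Its relatives differed from it in size or sign. P3H1 rose by 0.28 ± 0.047, P3H4 (-0.01 ± 0.040) did not pass, and P3H3, at about 6 CPM, fell (-0.41 ± 0.14), a call lost without hypoxia replicate 2 (adjusted p = 0.0704), hypoxia replicate 3 (adjusted p = 0.0515) or normoxia replicate 2 (adjusted p = 0.133, all by edgeR), from exon-exon reads (adjusted p = 0.142 by edgeR) or from TPM (adjusted p = 0.0534 by limma). SERPINH1, the collagen chaperone HSP47, fell slightly (-0.11 ± 0.034), which did not pass without hypoxia replicate 3 (adjusted p = 0.0535 by edgeR), and TMEM38B, an ion channel of the endoplasmic reticulum, fell by 0.27 (SE 0.066).

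Of 11 tested genes of procollagen export and processing, 7 rose and 1 fell (median 0.18), against 24.5% and 24.4% of all genes. When libraries were scaled by size alone 5 rose, MIA3 and ADAMTS2 no longer passing (adjusted p = 0.0552 and 0.109 by edgeR). BMP1, the C-propeptide proteinase that also activates LOX, rose from 134 ± 2.48 to 190.0 ± 5.62 CPM (0.50 ± 0.038). ADAMTS14, an N-propeptidase at 1.78 ± 0.26 against 2.71 ± 0.30 CPM, fell (-0.60 ± 0.23). That fall did not pass without hypoxia replicate 2 (adjusted p = 0.112), normoxia replicate 2 (adjusted p = 0.0691) or normoxia replicate 3 (adjusted p = 0.0956, all by edgeR), or by DESeq2 (adjusted p = 0.0524). Of 16 tested collagen substrates, 10 rose and 0 fell (median 0.36), against the same 24.5% and 24.4%. From TPM 9 rose, COL11A2 no longer passing (adjusted p = 0.0507 by limma). COL27A1 rose from 37.5 ± 2.47 to 94.0 ± 5.44 CPM (1.32 ± 0.055) and COL2A1 from 7.58 ± 1.79 to 16.3 ± 1.32 CPM (1.11 ± 0.13), both fibrillar collagens. COL1A2, the most abundant of them, rose by 0.40 ± 0.032, and elastin (ELN) was below the count filter.

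Of 5 tested genes of cofactor supply, 3 rose and 1 fell (median 0.16), against 24.5% and 24.4% of all genes. The ascorbate transporter SLC23A2 fell from 189.5 ± 3.05 to 138 ± 4.26 CPM (-0.45 ± 0.038, adjusted p = 7.10e-12, edgeR's quasi-likelihood test). The copper importer SLC31A1 rose from 26.8 ± 1.84 to 35.7 ± 3.00 CPM (0.42 ± 0.071). The small rises of the copper chaperone ATOX1 (0.16 ± 0.059) and the copper pump ATP7A (0.18 ± 0.063) did not pass when libraries were scaled by size alone (adjusted p = 0.209 and 0.133 by edgeR). The ATOX1 call was also lost without hypoxia replicate 1 or 2 (adjusted p = 0.0805 and 0.0742 by edgeR) and without normoxia replicate 2 or 3 (adjusted p = 0.112 and 0.121 by edgeR). That of ATP7A was lost without hypoxia replicate 3 or normoxia replicate 2 (adjusted p = 0.0823 and 0.0547 by edgeR).

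**Figure D4:**
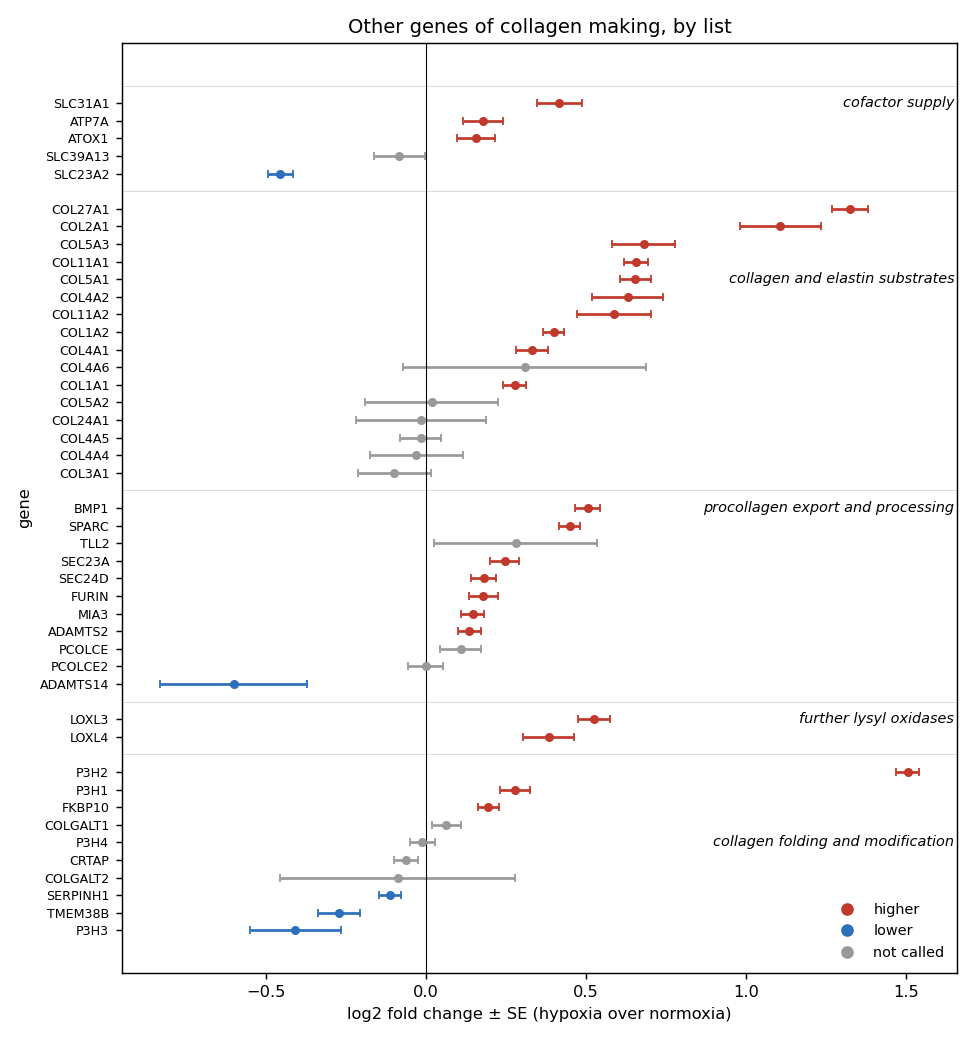
Log2 fold change of hypoxia over normoxia (points) with its SE (bars) for the tested genes of 5 lists, red where higher, blue where lower and grey where the test was not passed. P3H2 (1.505) and COL27A1 (1.32) lie farthest to the right, and ADAMTS14 (-0.60) and SLC23A2 (-0.45) farthest to the left.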

How the data were processed

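Per the labels' protocols, polyadenylated RNA of CMM10 was made into libraries with a NEBNext Ultra II kit, which does not mark strand, and sequenced as paired ends. Per the submitters' processing notes the build was CanFam3.1, with the aligner and counter not given in the sources used here. The deposited counts are, per the file headers, gene, exon, exon-exon and intron reads. The authors' deposited TPM equals exon reads per exon length scaled to a fixed sum. The deposited RPKM was not used.

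Gene reads were filtered (filterByExpr), scaled by TMM and tested with edgeR 4.0.16 (glmQLFit and glmQLFTest, robust, R 4.3.3) over all 15397 genes kept, with Benjamini-Hochberg adjustment. The filter passed all 10 members. Family shares, ratios and intron shares were compared by exact permutation (two-sided), where the smallest p for 3 against 3 is 0.1. The alternatives were other scalings, DESeq2 1.42.0, limma 3.58.1 on log2(TPM + 1), no filter, and exon, exon-exon or uniquely mapped gene reads. A 1.5-fold null, a replicate block and leaving out each library were further alternatives. The fit on intron reads was described beside the main values and was not counted as an alternative. The fitting code was tested on simulated data. The members, lists and rules were chosen with earlier results of these data known. Apart from all members, each list's 2 called genes of largest change with at least 1 CPM were named, the list genes that went against the rest, the 5 nearest to PLOD2 and 3 hypoxia markers. P3H1, P3H4, CRTAP, MIA3, ADAMTS2, TLL2, COL1A2, COL11A2, ELN, SLC23A1, ATOX1 and ATP7A were named after their values were seen. Of the list genes, 4 had no row of that symbol and 5 were below the filter. Promoter and protein sequences were not analysed here.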

Additional observations from a re-analysis of the deposited data

How the results depend on the processing

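Under the 15 alternatives other than the 1.5-fold null, the 9 called members kept their direction and their call. Intron reads, from which P4HB and PLOD3 did not pass, were not among these alternatives. Against that null P4HB (0.35), PLOD3 (0.35) and LOXL1 (-0.21) no longer passed, 756 genes were called higher and 95 lower, 0 members were called lower, and the lists kept 1 gene of folding and modification higher and 0 lower, 0 further lysyl oxidases higher, 0 and 0 genes of export and processing, 2 substrates higher and 0 and 0 genes of cofactor supply. P4HA3, not called in any alternative, changed sign from exon reads (0.056), exon-exon reads (0.067), TPM by limma (0.016) and without normoxia replicate 3 (0.012), and ranged from -0.15 to 0.012 with 1 library left out. Exon-exon reads called 2459 genes lower, with fewer genes tested. Library size alone left 1 cofactor gene higher, and DESeq2 0 export genes lower. With 1 library left out, the called genes were 3416 to 3598 higher and 3361 to 3585 lower. The folding list then had 1 to 3 lower, the export list 0 to 1 lower and the cofactor list 1 to 4 higher. The 4 came without normoxia replicate 1 and included SLC23A1, which was below the filter in the main fit (means of 0.44 against 0.18 CPM). With exon-exon reads per junction as the level, the differences in family share were -1.85 (P4HA3), -6.28 (PLOD1), -22.0 (PLOD3), 2.08 (LOX, reversed), -16.1 (LOXL1), 15.6 (LOXL2), -0.70 (LOXL3) and -0.86 (LOXL4) percentage points, and the log2 ratio of P4HB to the P4HA sum differed by -1.05. From uniquely mapped reads the intron share difference was 0 for P4HB, which had no unique intron reads, and -0.38 for LOXL2. With 1 library left out it ranged from -0.052 to 1.25 for LOXL1 and from -1.003 to 1.23 for PLOD2. Of 44 tested list genes, 10 changed their call in at least 1 alternative other than the 1.5-fold null. Those not named above were CRTAP, called lower with library size alone (adjusted p = 0.00343), and TLL2, called higher from exon-exon reads (adjusted p = 0.0280, both by edgeR). Unless stated, the cause was not tested.

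The labels do not say that libraries of the same number share anything, so the numbers were not used as pairs. Deviations of same-numbered libraries from their group means had r = -0.087, -0.024 and -0.025 across genes for numbers 1, 2 and 3. With 3 libraries centred within each group, these values cannot decide whether the libraries were paired. With the replicate number as a block, 3769 genes were higher and 3793 lower, and no member changed its call. For the family shares and the ratio, sign flips within numbers give at least p = 0.25 by exact permutation, which all reached. P4HA3, at 458 to 535 gene reads per library, had the fewest reads of the members and an SE of 0.087.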

Other observations

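Genes whose models overlap those of the members showed values that differed between kinds of reads. R3HCC1, on the strand opposite to LOXL2 (34160856 to 34206970 on chromosome 25), was called higher under hypoxia from gene reads (1.37 ± 0.043, adjusted p = 6.46e-23, edgeR's quasi-likelihood test). Its intron reads numbered 12643 under hypoxia and 3520 under normoxia over 3 libraries each (1.78 ± 0.055), close to the 1.76 of LOXL2. Its exon reads numbered 1753 and 1720 (-0.05 ± 0.075) and its exon-exon reads 903 and 918 (-0.09 ± 0.10), and neither passed the test (adjusted p = 0.623 and 0.493 by edgeR). The call for R3HCC1 thus rested on reads counted in its introns. The libraries do not mark strand, and how reads in overlapping models were assigned is not given in the sources used here.

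Around P4HB, PCYT2 was called higher from gene reads (0.16 ± 0.033) and from intron reads (0.23 ± 0.040), but its exon reads (-0.11 ± 0.081) and exon-exon reads (-0.09 ± 0.050) did not pass. GCGR held 15526 gene reads under hypoxia and 15922 under normoxia, of which 15 and 0 were exon reads. R3HCC1L, whose model holds that of LOXL4, changed by 0.33 ± 0.094 in exon reads and 0.43 ± 0.085 in intron reads, and its exon-exon reads (0.36 ± 0.17) did not pass (adjusted p = 0.0761 by edgeR), with LOXL4 at 0.39 ± 0.081 in its own exon reads.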
